A study of Drosophila melanogaster with 8 samples.

Results

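The genes described here encode neuropeptides and peptide hormones of Drosophila melanogaster, with the protein hormone subunits of the same signalling systems. They were given as a list of 41 gene symbols. The symbol had to equal the gene name in the deposited count matrix, and 40 of the 41 were found among its 17717 genes. Gpa2, which encodes the partner of the hormone subunit Gpb5, is not analysed here. The cells came from whole embryos at stage 17, collected 17 to 18.5 hours after egg laying at 25 °C, and all of them carried the same transgenes, alrm-gal4 with UAS myr::GFP and 25H07-gal4 with UAS-redstinger::NLS, of which the first labels the membranes of astrocytes. Pooled embryos were dissociated with a homogeniser, and single cells were profiled by 10x Genomics 3′ sequencing, which counts 1 molecule as 1 unique molecular identifier (UMI). The labels give 4 embryo preparations, each sequenced on 2 lanes, in a single condition with no control group, so there was nothing to test between groups and no p-value is given.

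Neuropeptides are cut from larger precursor proteins, packed into dense core vesicles and released from neurons or endocrine cells, and most act on G protein-coupled receptors. A peptide neuron or endocrine cell fills itself with the messenger RNA of its peptide, and many of the genes are used by a handful of identified cells in the whole animal. In the fly the main sources are neurons of the brain and ventral nerve cord, enteroendocrine cells of the midgut, the corpora cardiaca of the ring gland and the Inka cells that sit on the tracheae, and some hormones are made by fat body. Stage 17 is the last stage of embryogenesis, before the larva hatches and feeds.

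The matrix held 73765 barcodes and 252748748 UMIs. Barcodes carried the numbers 1 to 8, which no label ties to a preparation. Numbers n and n + 4 shared at least 99.6% of their barcodes and other numbers at most 0.422%, so each such pair was summed and is called a library pair. A molecule read under both numbers of a pair would be counted more than once in the sum. How often this occurred is not given here. Of 38531 distinct cells, 27932 with 200 or more genes and under 20% mitochondrial UMIs were kept, with a median of 4069 UMIs. Clustering without the peptide genes gave 39 clusters, of which 27 were named from marker genes (neuron-like, glia-like, midgut-like and so on) and 12, with 4922 cells, stayed unnamed and go by number. Library pair 1 stood apart in its makeup. Neuron-like cells were 13.4% of its cells against 28.9% to 39.4% in the other pairs, and fat body-like cells numbered 1372 against 364 to 635. Doublets were not called or removed, so a barcode can hold RNA of more than 1 cell. All intervals below are 95% intervals for counting error only.

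The 40 genes had 1727511 UMIs together, of which Nplp2 alone took 93.9%. The other 39 genes shared 105645 UMIs, or 0.0458% of all UMIs in the kept cells. After Nplp2 came ETH (18053 UMIs), ITP (11995), Akh (8929), Proc (7125) and Ms (5048). Nplp1, AstA, Dh31 and CCHa2 completed the 10 highest, with 3972 to 4657 UMIs each. At the low end RYa had 15 UMIs, each in a different cell, and Nplp4 had 3. These 2 genes fell under the 30 UMIs required for the counts below, which left 38.

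**Figure D1:**
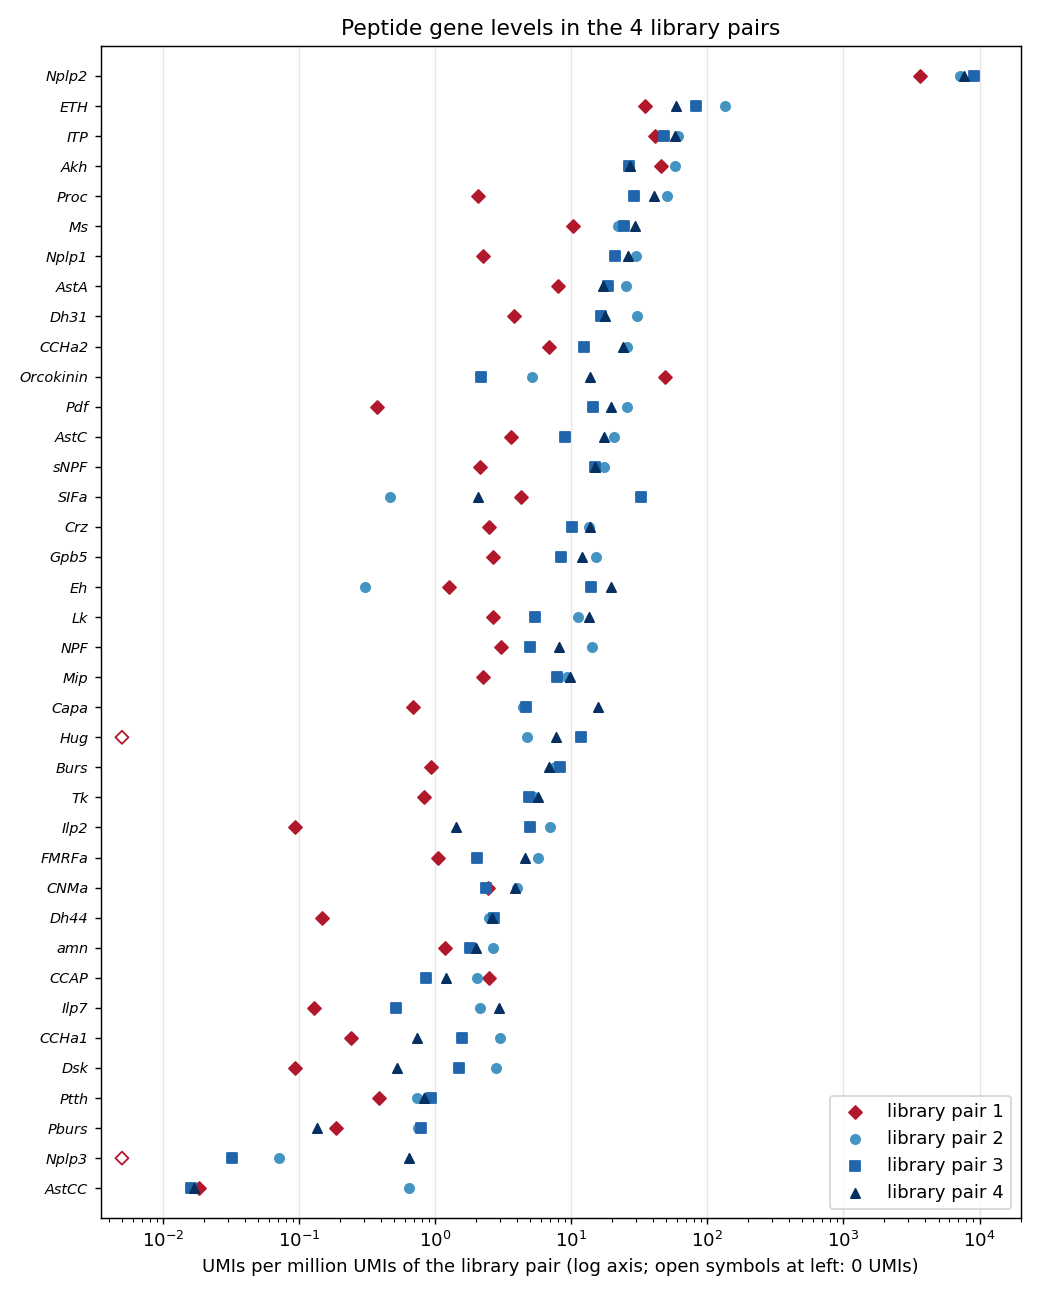
Level of each peptide gene in the 4 library pairs, in UMIs per 1000000 UMIs of the pair (CPM) on a log axis, 1 symbol per pair, with open symbols at the left edge for 0 UMIs. Library pair 1 was the lowest of the 4 for 30 of the 38 genes with 30 or more UMIs.

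The levels differed between library pairs by gene. Akh was measured at 45.4, 58.3, 26.5 and 26.8 CPM in library pairs 1 to 4, so pair 1 was not low for it. Proc was measured at 2.06, 50.5, 28.8 and 40.7 CPM in the same order, and Nplp1 at 2.25, 30.1, 21.1 and 26.2. For both of these, pair 1 was far below the other pairs, as was its share of neuron-like cells. The level of a library pair depends both on how many cells of a type it holds and on the RNA of the gene per cell. Within neuron-like cells alone, Proc was at 20.6 CPM in pair 1 and at 123 to 142 in the others, so the difference was also present inside that class. The cause was not tested.

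Most of these genes put many UMIs into few cells. For each gene the smallest number of cells that together held 50% of its UMIs was counted, and the gene was called concentrated at 20 cells or fewer. Of the 38 genes, 25 (65.8%) were concentrated, against 11.2% of the 11903 genes of the matrix with 30 or more UMIs. The median was 12 cells for the peptide genes and 404 cells for all genes. A cell with at least 10 UMIs of a gene is called a high cell of it. Of the 40 genes, 37 had at least 1 high cell, 25 had 10 or more, and amn, RYa and Nplp4 had none. Without Nplp2 there were 997 high cells, with a median depth of 11267 UMIs against 3990 in all other cells. Deep cells reach 10 UMIs more easily, and the part of depth in these counts was not tested.

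**Figure D2:**
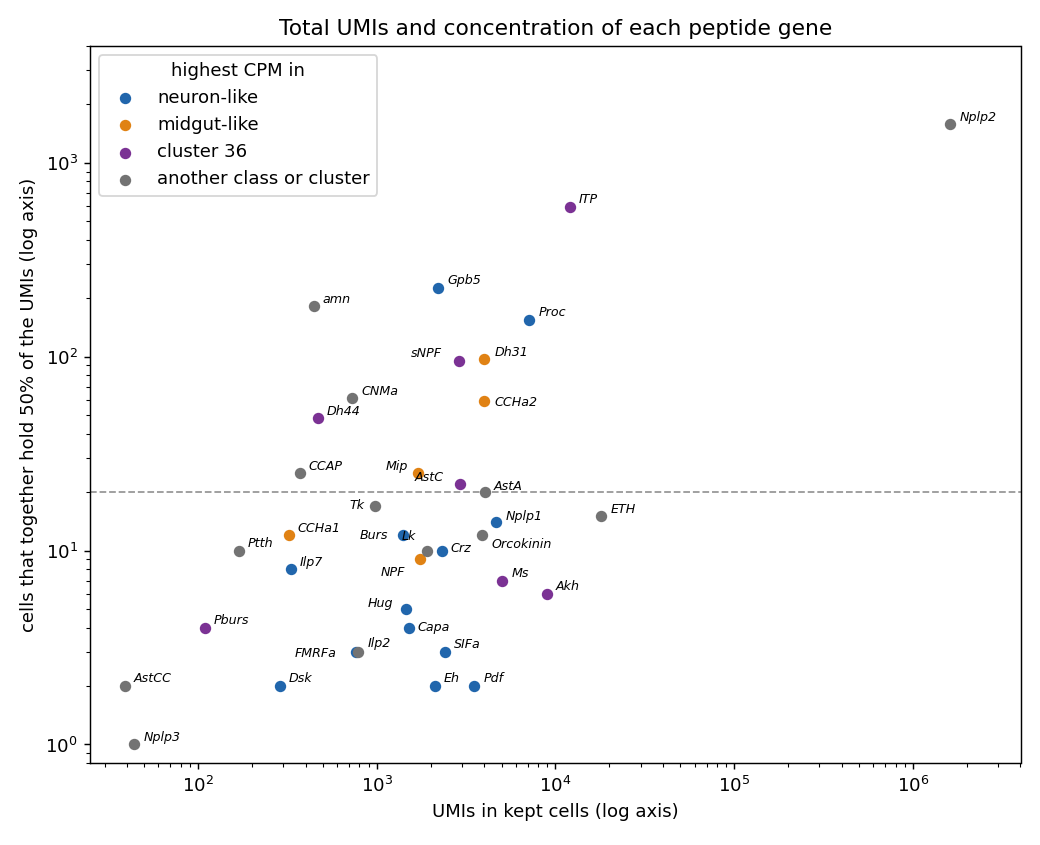
Total UMIs of each peptide gene (log axis) against the number of cells that together held 50% of them (log axis), coloured by where the gene had its highest CPM. Pdf and Eh reached 50% in 2 cells, whereas ITP needed 592 cells and Nplp2 1578.

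The sharpest cases were peptides of a few neurons. Eh encodes eclosion hormone, which is released by a pair of brain neurons to start ecdysis. It had 635, 535, 500, 322 and 54 UMIs in its 5 high cells, which held 97.2% of its 2104 UMIs, and no other cell exceeded 7. All 5 were neuron-like, and elav and nSyb, markers of neurons, were found in each. They came from library pairs 1, 3 and 4, with 1, 2 and 2 cells. SIFa, a peptide of neurons in the pars intercerebralis of the brain, had 7 high cells with 674, 492, 482, 297, 219, 80 and 65 UMIs. Of these cells 5 were in library pair 3, so the level of SIFa was 32.7 CPM there against 0.466 to 4.25 in the other pairs. The SIFa cell with 219 UMIs and the Eh cell with 54 were the same barcode, in library pair 1. It had 60842 UMIs and was also high for Crz, Ms and Dh31. Whether it held 1 cell or more was not tested.

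Pdf encodes pigment-dispersing factor, known for its role in clock neurons and also made by neurons of the abdominal nerve cord. Its UMIs in library pairs 1 to 4 were 20, 1435, 895 and 1164, and the highest cells held 944, 868 and 374 UMIs. In pair 3 a single high cell carried almost all of the signal, while pairs 2 and 4 had 10 and 9 high cells. Of the 20 high cells, 16 were neuron-like and 3 glia-like. The genes that stood out most in them among genes other than peptides were GC, lncRNA:iab8 and twit, at log2 ratios of 4.82, 4.79 and 4.14 over all other cells. The lncRNA:iab8 locus lies in the bithorax complex, whose genes pattern the abdomen.

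**Figure D3:**
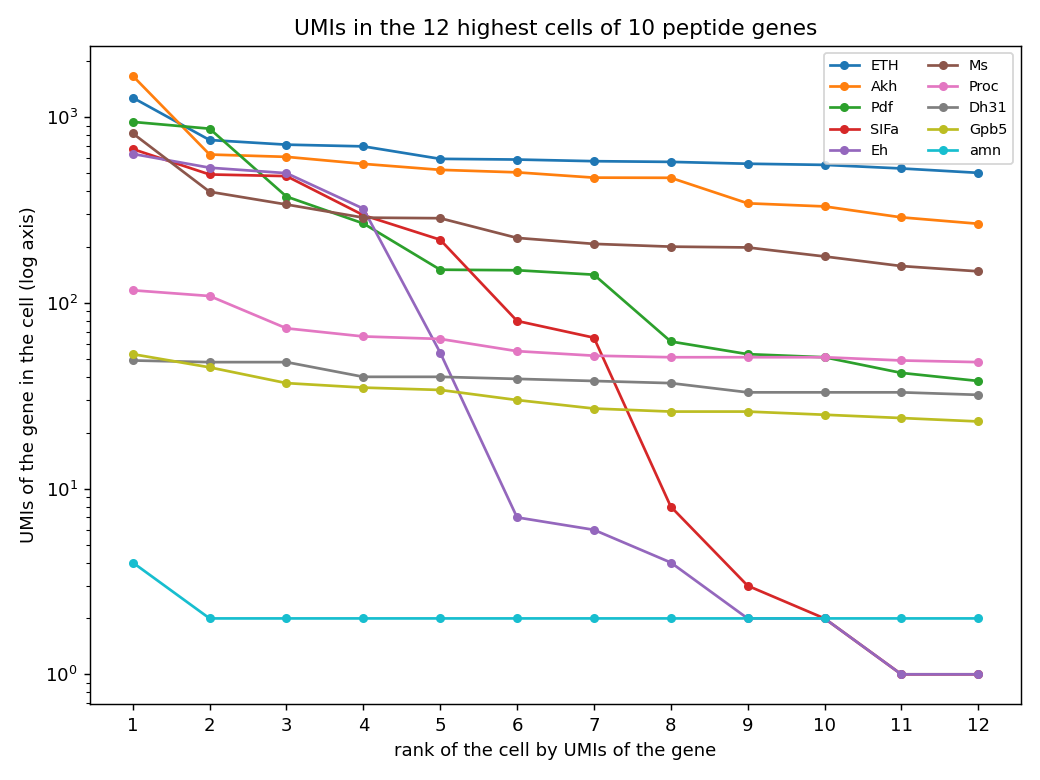
UMIs of 10 peptide genes in their 12 highest cells, ranked by UMIs (log axis). The line of Eh drops from 54 to 7 UMIs after its 5th cell, while Dh31 falls only from 49 to 32 and amn never exceeds 4.

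Other neural peptides had between 10 and 35 high cells. Capa encodes the periviscerokinins, which act on renal tubules, and had 37, 245, 290 and 933 UMIs in library pairs 1 to 4. Of its 19 high cells, 18 were neuron-like, and its level there was 32.7 CPM against 0.311 elsewhere (log2 ratio 6.72, 6.34 to 7.12). Pair 4 had most of its UMIs, with the highest cell at 330. Hug, whose pyrokinin is made by feeding-related neurons of the subesophageal zone, had 0, 264, 737 and 454 UMIs. No Hug UMI was seen in pair 1, a count that allows up to 0.0557 CPM. Hug had 18 high cells, of which 14 were neuron-like. The homeobox genes otp and salr, with beat-Ib, stood out in them, at log2 ratios of 3.68, 2.87 and 2.66. For Capa the leading genes were hoe2, amon and twit, at 4.22, 3.98 and 3.93.

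Crz encodes corazonin, a peptide of neurosecretory and ventral nerve cord neurons. It had 133, 751, 626 and 805 UMIs in the 4 library pairs, and 27 of its 33 high cells were neuron-like. Within neuron-like cells its level was much alike across the pairs, at 33.6, 42.2, 44.5 and 45.4 CPM. DIP-gamma, Rgk2 and CG43740 led the genes raised in its high cells, at log2 ratios of 3.67, 3.49 and 3.45. Lk encodes leucokinin, a diuretic peptide of abdominal neurons, and had 144, 630, 338 and 801 UMIs. Of its 35 high cells 27 were neuron-like and 7 neural progenitor-like, and the latter also carried elav and nSyb in all 7 cells. Its highest level was in the small cluster 20, but on 20 UMIs, and without library pair 2 the log2 ratio there turned from 2.45 to -2.50. Over the Lk high cells twit, lncRNA:CR43283 and CG45781 were the leading genes, at 3.66, 3.63 and 3.43.

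Ilp2 encodes an insulin-like peptide of the insulin-producing cells in the brain. It had 5, 390, 308 and 84 UMIs in library pairs 1 to 4, and its 10 high cells held 91.4% of its UMIs. These cells fell into several classes, with 5 neural progenitor-like and 4 neuron-like, so its highest class was neural progenitor-like at 35.3 CPM. The cell with most Ilp2, at 199 UMIs, was glia-like and in library pair 3. All 10 carried elav and nSyb, and 6 carried the glial gene repo. The call for neural progenitor-like cells reversed with the clustering or the filter on cells, to a log2 ratio of -3.48 at a finer resolution and -2.31 with the filter on cells of the study. CG5160 and Vkor led its high cells at 6.96 and 6.69. Optix, a homeobox gene of the anterior head, was at 5.52.

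Other neural peptides were spread over more cells. Proc encodes proctolin, a transmitter that contracts muscle, and had 111, 2818, 1796 and 2400 UMIs in the 4 library pairs. Its 183 high cells were the most of any member but Nplp2, and they were 1, 65, 45 and 72 in number by pair. Of these, 142 were neuron-like and 24 glia-like. CG3014, CG14274 and twit led them at log2 ratios of 4.22, 4.10 and 4.10. The twit gene was thus among the first 3 companions of Proc, Pdf, Capa, Lk, Gpb5 and Burs. CG14274, CG3014 and twit were also leading genes of cluster 30, a neuron-like cluster of 350 cells. Companions were ranked against all other cells, not against other neuron-like cells.

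Nplp1 encodes a precursor of several peptides that marks neurons of the Apterous group. It had 121, 1679, 1314 and 1543 UMIs in the 4 library pairs, and 44 high cells held 73.5% of them. Its highest cell had 229 UMIs of 2101, or 10.9% of all that cell's UMIs. CG13056 stood far above the rest of the companions of Nplp1, at 439 CPM against 0.787 elsewhere (log2 ratio 9.13, 8.86 to 9.39), with CG1124 and CG13248 at 3.32 and 3.16. Gpb5 encodes a glycoprotein hormone subunit and was spread more thinly. It had 144, 844, 521 and 703 UMIs, of which only 22.5% lay in its 20 high cells. CG5071, twit and CG14274 led its high cells at 4.43, 4.27 and 3.80.

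Burs and Pburs encode the 2 subunits of bursicon, which tans the cuticle after ecdysis. Burs had 50, 427, 511 and 406 UMIs in the library pairs and 34 high cells, of which 28 were neuron-like. CG4577, twit and dpr20 led them at log2 ratios of 4.22, 4.06 and 3.95. Pburs had 109 UMIs in 38 cells and 3 high cells. Its highest group was cluster 36 with 6 UMIs, too few to place it, while 73.4% of its UMIs were in neuron-like cells. Ilp7, an insulin-like gene of neurons in the posterior nerve cord, had 7, 119, 32 and 173 UMIs. Of its 13 high cells 11 were neuron-like, and GC, lncRNA:iab8 and CG42540 led them at 5.54, 5.32 and 4.82.

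The remaining members of this kind had fewer than 10 high cells. FMRFa, which encodes the FMRFamide-related peptides, Dsk, which encodes the sulfakinins related to cholecystokinin, Dh44, a diuretic hormone related to corticotropin-releasing factor, and CCHa1 had 3 to 9 high cells each. Neuron-like cells held 92.5%, 92.3%, 82.5% and 59.0% of their UMIs. Dh44 had 469 UMIs in 238 cells, so most of its cells had few. Ptth, the brain hormone that drives ecdysone synthesis, had 169 UMIs and 4 high cells. AstCC had 39 UMIs, all of them in 10 cells. Nplp3 lay mostly outside neuron-like cells. It had 44 UMIs, of which 37 lay in the unnamed cluster 32, which carried markers of epidermis and trachea, and 3 in neuron-like cells, and 38 came from library pair 4.

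Over all members, the level in neuron-like cells was at least 2-fold that in all other cells, a log2 ratio of 1 or more, for 28 of 38 genes (73.7%), against 29.3% of all genes with 30 or more UMIs. The median log2 ratio was 2.67 for the members and 0.03 for all genes. In midgut-like cells 9 of 38 reached this ratio (23.7%), against 15.9% of all genes. In glia-like cells 8 of 38 did (21.1%), against 9.54%. The midgut-like count was 3 by own markers, and the glia-like count was 1 at resolution 2.0, 2 with cluster 29 set apart, 3 with the filter of the study and 5 without library pair 4. The highest class was neuron-like for 13 members, midgut-like for 5, cluster 36 for 7, neural progenitor-like for 3, and other classes for the rest. The count of 13 depended on how cells were grouped, since small groups can outrank a class of 7840 cells. It was 4 at a finer resolution and 26 when only neuron-like, glia-like and midgut-like cells were set apart by their own markers, while the count of 28 stayed within 25 to 29 in all alternatives run.

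**Figure D4:**
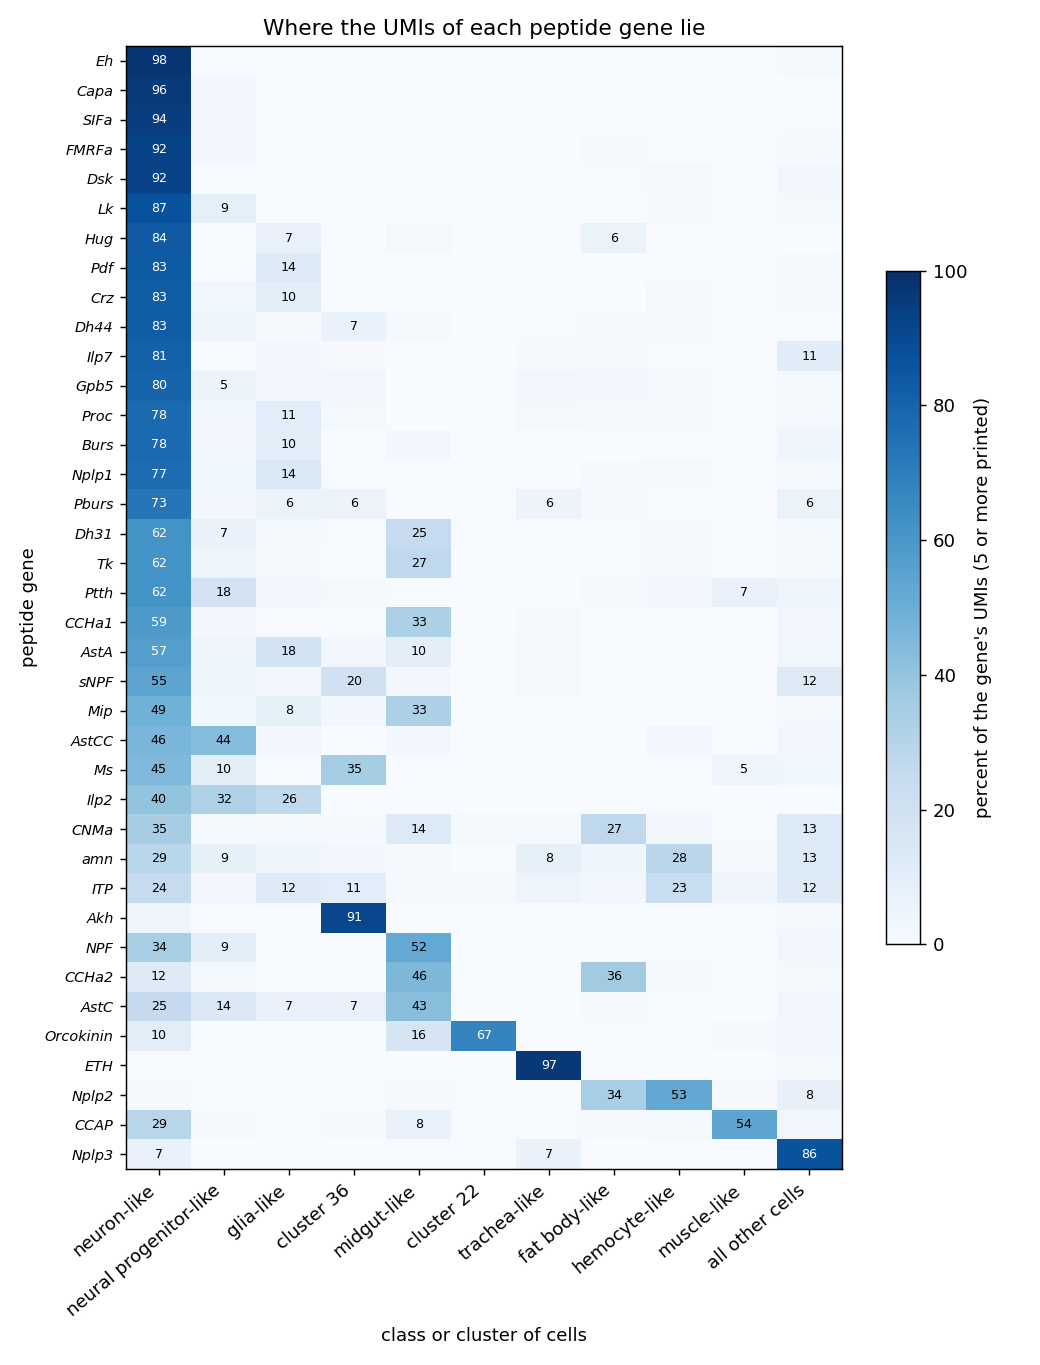
Share of the UMIs of each peptide gene, in percent, in the classes and clusters that held most of them, with shares of 5% or more printed. Neuron-like cells held over 90% of Eh, Capa, SIFa, FMRFa and Dsk, trachea-like cells 97% of ETH and cluster 36 held 91% of Akh.

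Midgut-like cells were the highest class of Dh31, CCHa2, NPF, Mip and CCHa1, and held the largest share of AstC. The enteroendocrine cells of the midgut are known to make these peptides with Tk and Orcokinin. CCHa2, a gut and fat body hormone that raises insulin output, was at 13.5, 213, 36.2 and 207 CPM in the midgut-like cells of library pairs 1 to 4. Of its 83 high cells 46 were midgut-like, and 45 of these carried the gut gene mex1 and 45 carried pros, a marker of enteroendocrine cells. Other enteroendocrine markers were less common, with Phm in 29 of the 46, dimm in 11 and tap in none. Fat body-like cells held a further 1432 of its 3972 UMIs, in 22.9% of those cells and mostly as few UMIs per cell. Trachea-like cells, which were deeper (median 11915 UMIs against 8347), had a CCHa2 UMI in 0.834%. The 15 fat body-like high cells were very deep, with a median of 163545 UMIs. CG34176, smp-30 and CG12825 led the CCHa2 high cells at log2 ratios of 3.83, 2.96 and 2.88.

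AstC encodes allatostatin C, an inhibitory peptide of brain and gut. In midgut-like cells it was at 17.8, 123, 38.7 and 147 CPM in the 4 library pairs, and 34 of its 81 high cells were midgut-like. All 34 carried mex1, 32 carried pros, 19 Phm, 9 dimm and none tap. The companions of AstC were CG4577, Pal2 and 7B2, at 3.24, 2.58 and 2.29, the latter 2 being genes of peptide maturation. NPF encodes neuropeptide F, the relative of vertebrate neuropeptide Y. It was at 23.0, 89.9, 81.0 and 46.6 CPM in midgut-like cells, where 16 of its 26 high cells lay, against 7 that were neuron-like. Pairs 1 and 4 were below pairs 2 and 3 for NPF, an order unlike that of AstC. CG5399, CG10300 and CG12974 led its high cells at 5.34, 5.32 and 4.76.

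Dh31, a diuretic hormone related to calcitonin, divided between gut and nervous system. It was at 16.3, 133, 36.2 and 69.3 CPM in midgut-like cells and at 26.3, 63.3, 60.9 and 49.7 in neuron-like cells. The ranges overlapped, and its midgut-like call was lost when cells were set apart by their own markers (log2 ratio -0.0019). Of its 131 high cells, 85 were neuron-like and 35 midgut-like. The leading genes in them were bma, IA-2 and 7B2, at 2.56, 2.41 and 2.36. Mip encodes the myoinhibiting peptides and had 122, 516, 492 and 575 UMIs, with 22 neuron-like and 12 midgut-like high cells of 42. CG4577, amon and CG15765 led the Mip high cells at 4.06, 3.38 and 3.24. Its midgut-like call reversed to -1.26 under the same grouping by own markers.

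Tk encodes the tachykinins and had 45, 295, 303 and 336 UMIs in the 4 library pairs. Its 28 high cells were 18 neuron-like and 9 midgut-like, and all 9 of the latter carried mex1 and pros, with Phm in 8, dimm in 4 and tap in 1. None of these 9 came from pair 1. Its highest group was cluster 18 with 5 UMIs, too few to place it. The fatty acid carriers Dbi and fabp led the Tk high cells at 4.73 and 3.16, followed by the GC1 gene at 2.96. AstA, allatostatin A, had 428, 1418, 1161 and 1017 UMIs, with 43 neuron-like, 14 glia-like and 12 midgut-like high cells of 76. Its companions were CG4577, amon and fabp, at 3.44, 2.77 and 2.74.

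Within the midgut-like class, pairs of peptides shared high cells unevenly. AstC and CCHa2 were both high in 19 cells, which were 55.9% of the midgut-like AstC cells and 41.3% of those of CCHa2. AstA and Tk shared 5 cells, or 41.7% and 55.6% of theirs, and AstC and NPF shared 6, as did Orcokinin and AstC. Tk shared no high cell with AstC, CCHa2, NPF, Orcokinin or Mip in this class. With 9 Tk cells, this count is small.

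Akh encodes adipokinetic hormone, the fly counterpart of glucagon, which the corpora cardiaca release to mobilise fat and sugar. The gene lies on chromosome 3L at 4141467 to 4142070 on the forward strand (build BDGP6.54). Cluster 36, which had 163 cells, was led by asRNA:CR45812 and by spok, dib, sro, sad and phm, which encode enzymes of ecdysone synthesis in the prothoracic gland, the neighbour of the corpora cardiaca in the ring gland. In this cluster Akh was measured at 4690, 4292, 2515 and 2407 CPM in library pairs 1 to 4, so all 4 pairs were high. It was at 3.66 CPM elsewhere (log2 ratio 9.88, 9.77 to 9.98). Cluster 36 held 8093 of the 8929 Akh UMIs and 25 of its 32 high cells, and the highest cell had 1671.

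The Akh cells carried further genes of the gland. Among the 32 high cells, 23 had gl, 12 had tin and 24 had dimm, a regulator of peptide cells. The ecdysone enzyme gene spok was found in 20, at 1508 CPM against 2.53 in all other cells. Another listed marker of the corpora cardiaca, kn, is not reported here. The gene tin was also on the list for heart and visceral mesoderm. Cluster 36 stayed unnamed because it carried markers of that class and of muscle precursors. CG14075 was the leading gene at 11658 CPM against 1.41 elsewhere (log2 ratio 13.01, 12.85 to 13.18), with CG43207 and sro at 9.48 and 9.44. Away from these cells Akh was scattered thinly. Of 426 cells with an Akh UMI, 372 had just 1, and its level was 8.27 CPM in neuron-like and 2.66 in midgut-like cells.

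Cluster 36 was also the highest group of sNPF, Ms, ITP and AstC. For AstC this rested on 13 cells with a UMI of it. It was at 6.24, 50.5, 5.07 and 291 CPM in the cluster by pair, or 91.8 overall against 79.3 in midgut-like cells, and without library pair 4 the log2 ratio fell from 2.95 to 1.08. sNPF encodes short neuropeptide F, and it was at 99.8, 218, 264 and 357 CPM in cluster 36 and at 16.2 to 42.3 in neuron-like cells, without overlap. Of the 57 sNPF high cells, 22 were neuron-like, 19 were in cluster 36 and 11 in cluster 32. The phospholipase gene norpA, with CG33143 and Kr, led them at 3.88, 3.55 and 3.48. Akh and sNPF were both high in 8 cells, which was 25.0% of the Akh cells. All 8 were in cluster 36, and their median depth was 69110 UMIs, so they were among the deepest cells.

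Ms encodes myosuppressin, which slows heart and gut. It had 552, 1237, 1526 and 1733 UMIs in the library pairs and 43 high cells, of which 24 were neuron-like and 9 in cluster 36. Those 9 held 1789 UMIs, and Ms was at 605, 768, 840 and 802 CPM in the cluster, a narrow range. All 9 carried elav, nSyb and repo, and all 9 were also high for ITP. CG4577, CG15537 and Sytalpha led the Ms high cells at 4.54, 4.35 and 4.32. ITP encodes ion transport peptide, an antidiuretic hormone, and its 30 high cells in cluster 36 had no overlap with the 25 of Akh or the 19 of sNPF there. ITP and Akh were thus high in separate cells of the cluster, and 77 of its 163 cells (47.2%) were high for at least 1 member other than Nplp2.

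ITP had a second, diffuse part. It was found in 5053 cells, of which 3163 had a single UMI, and its 100 high cells held only 32.4% of its 11995 UMIs. Its UMIs in library pairs 1 to 4 were 2206, 3395, 2978 and 3416, the most even of the 38 genes by the ratio of its highest to its lowest CPM. Hemocyte-like cells held 2771 of them at 106 CPM, glia-like cells 1483 at 140 CPM and neuron-like cells 2907 at 65.7 CPM, while midgut-like cells were at 9.003 CPM. ITP UMIs were found in 32.5% of hemocyte-like cells and in 13.03% of midgut-like cells, at median depths of 4286 and 11533 UMIs, and thinned to 500 UMIs in 5.51% and 0.262%. CG4577, ImpL2 and CG33639 led the ITP high cells at 3.46, 2.48 and 2.0.

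ETH encodes the ecdysis triggering hormones, made by the Inka cells on the tracheae. It lies on chromosome 2R at 24794670 to 24795482 on the reverse strand. Trachea-like cells held 17428 of its 18053 UMIs, and its level in them was 341, 1293, 669 and 501 CPM in library pairs 1 to 4, against 3.04 elsewhere (log2 ratio 7.85, 7.73 to 7.96). There were 14, 19, 13 and 10 high cells by pair, with a median of 312 ETH UMIs, so no pair gave fewer than 10 of the cells. Of the 56, 50 were trachea-like, 52 carried the tracheal gene trh, 40 carried btl and none carried repo. The neuron markers elav and nSyb were found in 38 and 41 of the 56. Their levels in these cells were 27.8 and 21.1 CPM, against 365 and 338 in all kept cells. These cells had a median depth of 72198 UMIs, far above the 11915 of their class. The genes that led them were CG11703, CG34447 and asRNA:CR46136, at log2 ratios of 7.98, 5.99 and 5.69. Of the 236 cells with an ETH UMI, 162 had just 1.

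Orcokinin, a peptide of enteroendocrine cells and neurons, had most of its UMIs in a single library pair. It had 2655, 285, 136 and 804 UMIs in library pairs 1 to 4, and pair 1 was thus the highest, against the general order. Cluster 22, unnamed and with 239 cells, held 2614 of its 3880 UMIs (2181.9 CPM against 5.51 elsewhere, log2 ratio 8.63, 8.53 to 8.73). Of the 239 cells 186 were from pair 1, and of the 31 Orcokinin high cells in the cluster 26 were. Within cluster 22 the level was 2630, 1131, 309 and 1211 CPM by pair, so it was also high in the cluster cells of the other pairs. Without pair 1 the log2 ratio was 7.33. These 31 cells had little of the neuron markers (elav and nSyb in 4 each), GATAe in 8 and mex1 in 2, and no pros or dimm.

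The other Orcokinin cells looked different. In midgut-like cells 16 were high, of which 15 carried mex1, 16 GATAe, 14 pros, 12 Phm, 5 tap and 4 dimm. A further 5 were neuron-like with a median depth of 1996 UMIs. Taking all 54 high cells, CG8562, CG12011 and CG7997 led them at log2 ratios of 5.85, 5.52 and 4.50. CG12011 and CG7997 were also leading genes of cluster 22 itself.

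Nplp2 was unlike all other members. It had 1621866 UMIs (95% interval 1619371 to 1624364), found in 20939 cells, of which 9772 were high. Hemocyte-like cells were at 17547, 38079, 35563 and 34877 CPM in library pairs 1 to 4, and fat body-like cells at 10927 CPM overall. The highest group was the unnamed cluster 20 at 75285 CPM, where all 147 cells had an Nplp2 UMI. Nplp2 UMIs were also found in 60.01% of neuron-like cells, at 457 CPM, against 99.7% of hemocyte-like cells, at median depths of 2821 and 4286. With each cell thinned to 500 UMIs the shares were 17.5% and 97.8%. Free RNA can give UMIs in cells that do not express a gene. The share was much the same in glia-like (60.4%) and muscle-like cells (61.3%) and was 51.7% or more in every group. Among the Nplp2 high cells, 145 were neuron-like and 53 glia-like. The part of free RNA in these shares was not tested. No peptide gene described here was lower in neuron-like cells relative to the rest than Nplp2 except ETH, their log2 ratios being -4.23 and -5.33. CG34331, CG34437 and Ance-5 led the Nplp2 high cells at 6.99, 6.60 and 6.49, and the hemocyte genes Sr-CI and Pxn followed.

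CCAP, CNMa and amn were low and had their highest level outside neuron-like cells. CCAP, crustacean cardioactive peptide, acts at ecdysis and on the heart, and had 133, 113, 53 and 71 UMIs in the library pairs. Muscle-like cells held 200 of its 370 UMIs, at 32.6, 20.5, 12.7 and 40.8 CPM by pair against 0.760 elsewhere (log2 ratio 5.19, 4.89 to 5.50). It had only 5 high cells, 3 of them muscle-like with no nSyb, and its highest cell, with 56 UMIs, was neuron-like. CNMa had 730 UMIs in 379 cells, with its highest level in muscle precursor-like cells on 32 UMIs. Neuron-like cells held its largest share, 256 UMIs, at a log2 ratio of 1.19, and fat body-like cells held 199. Of its 8 high cells 4 were neuron-like and 4 midgut-like. The amn gene, named for its memory mutant, had 444 UMIs in 404 cells and never more than 4 in a cell. Its highest group was cluster 18 with 2 UMIs (log2 ratio 2.23, -0.82 to 4.09), too few to place it.

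Neuron markers were present in the peptide cells of the glia-like class. The 24 glia-like Proc cells had the neuron marker list at 15061 CPM, against 2897 in their class as a whole and 15904 in neuron-like cells, with elav in 23 and nSyb in all 24. The 8 glia-like Nplp1 cells were at 12471 CPM of the list, and all 8 carried both genes. ITP and AstA were both high in 11 cells, all glia-like, and these were at 2648 CPM of the neuron list with repo in 10, nSyb in 11 and alrm in none. The astrocyte genes alrm and Gat were in 89.8% and 93.7% of the cells of cluster 29, a glia-like cluster in which nSyb was in 30.8% and fne in 37.8%. With that cluster set apart, 2 rather than 8 members had a log2 ratio of 1 or more in glia-like cells. Whether these barcodes held 1 cell or more was not tested.

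Several members were high in the same cells. The 997 high cells counted above gave 1298 cell and gene pairs, and 220 cells were high for 2 or more members. Among members with 5 or more high cells, Nplp2 left out, 11 pairs of genes shared at least 3 cells and at least 25% of the shorter list. Burs and Mip shared 13 cells, which were 38.2% of the Burs and 31.0% of the Mip cells, and 11 of them were neuron-like. Burs and Mip cells are known to overlap with CCAP neurons of the ventral nerve cord that drive ecdysis. Here CCAP had only 5 high cells, of which 1 was shared with Burs and 2 with Mip. Pdf and Proc shared 11 cells, or 55% and 6.01% of theirs. Ilp7 shared 9 of its 13 cells with Pdf and 8 with Proc, and these shared cells were neuron-like. GC and lncRNA:iab8 were the first 2 companions of both Pdf and Ilp7, but the 9 shared cells entered both rankings.

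**Figure D5:**
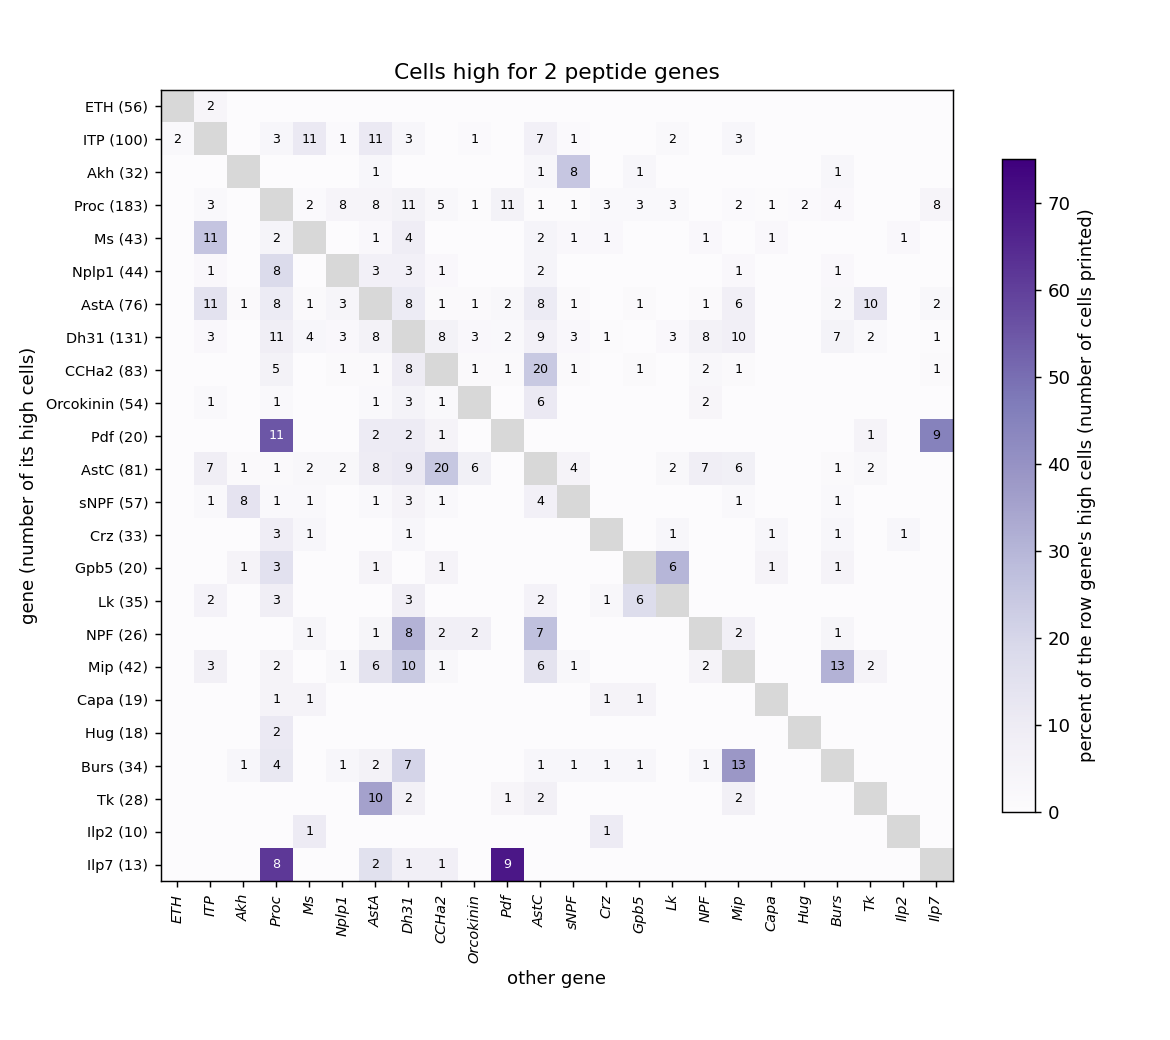
Number of cells high for both genes of a pair, printed, and its share of the high cells of the row gene, shaded in percent, for members with 10 or more high cells other than Nplp2. The darkest cells are Ilp7 with Pdf (9 cells, 69.2% of Ilp7) and with Proc (8 cells, 61.5%).

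The other pairs were ITP and Ms with 11 cells, AstA and Tk with 10, Akh and sNPF with 8, Dh31 and NPF with 8, AstC and NPF with 7, Gpb5 and Lk with 6, and Crz and SIFa with 3. CCHa2 and AstC shared 20 cells, at 24.1% and 24.7% of their lists, the most of any pair without Nplp2. Nplp2, with its 9772 high cells, shared 32 with CCHa2 and 21 with Orcokinin. Cells high for several members tended to be deep, with median depths of 10094 UMIs for 1 member, 16693 for 2, 18273 for 3 and 35507 for 4. When the 10 UMIs also had to make up 0.1% of the cell, 630 cells were high for exactly 1 member and 2 for 4, against 777 and 10 without that rule. Under that rule the pairs Burs and Mip, ITP and Ms, Pdf and Proc, Ilp7 and Pdf, Ilp7 and Proc, and AstC and NPF still met the condition. A single neuron-like cell of 6591 UMIs in library pair 2 was high for 6 members, with 75 UMIs of NPF, 56 of CCAP, 35 of AstC, 27 of Burs, 13 of Mip and 12 of Dh31. It was chosen after its values were seen.

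Genes of peptide maturation and release were examined in the same cells. Of 17 such genes, 10 had a log2 ratio of 1 or more in neuron-like cells, with a median of 1.73, against 29.3% and a median of 0.03 for all genes. Neuron-like cells were the highest group of 3 of the 17 and cluster 36 of 8. The 997 high cells carried dimm at 14.5 CPM against 0.609 elsewhere (log2 ratio 4.57, 4.28 to 4.88). The ratio was 2.41 for Pal2, which acts in peptide amidation, 2.26 for amon, the prohormone convertase that cuts precursors, and 2.20 for its helper 7B2. It was 1.82 for the vesicle protein gene IA-2, 1.19 for Syt4, 0.99 for the carboxypeptidase gene svr, 0.74 for Cadps and 0.50 for Phm. Of the 997 high cells, 508 were neuron-like. In neuron-like cells against all others, the ratio was larger for Pal2 (3.01), amon (3.30), 7B2 (3.37), IA-2 (3.98), Syt4 (4.04) and Cadps (3.17). It was 1.42 for dimm, 0.98 for svr and 0.57 for Phm. How far the class makeup of the high cells sets these ratios was not tested. Among the 24 members with 10 or more high cells other than Nplp2, Capa cells were the highest for amon, Pal2, 7B2, IA-2, Cadps and Syt4, with amon at 475 CPM. ETH cells were the lowest of the 24 for all 6 of these genes, with amon at 23.0 CPM, but the highest for svr at 533 CPM. Trachea-like cells as a class were the highest group of svr, at 416 CPM against 81.8 elsewhere. An amon UMI was found in 42 of the 56 ETH cells.

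Receptors of the peptides were mostly higher in neuron-like cells than in all other cells together. Of the 40 receptor genes with 30 or more UMIs, 33 had a log2 ratio of 1 or more in neuron-like cells, against 29.3% of all genes, and the median was 2.89, against 0.03. The highest level was nevertheless in neuron-like cells for 11 and in another group for 29, of which 16 were highest in cluster 36. SIFaR, the SIFamide receptor, was at 64.3 CPM in neuron-like cells against 2.44 elsewhere (log2 ratio 4.72), and the receptor genes AstA-R1 and TkR86C were at 4.22 and 4.18. AkhR, the receptor of Akh, was at 58.0 CPM in fat body-like cells against 0.932 elsewhere (log2 ratio 5.96, 5.73 to 6.19). The bursicon receptor gene rk had its highest level in heart and visceral mesoderm-like cells (184 CPM, log2 ratio 5.37). CapaR and Lkr, whose ligands act on renal tubules, were highest in the unnamed cluster 21 at 4.32 and 3.39, Proc-R in the unnamed cluster 33 at 6.31, and CNMaR in cluster 36 at 6.38.

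Of the peptide genes outside the list, 6 of 9 had 30 or more UMIs. Ilp4 and Ilp6, insulin-like genes, were highest in hemocyte-like cells at 1113 and 501 CPM (log2 ratios 5.53 and 2.81), the class that also held most Nplp2. Ilp8 was highest in cluster 22 at 50.1 CPM, the cluster of most Orcokinin UMIs. Trissin and natalisin, a relative of the tachykinins, were highest in neuron-like cells at log2 ratios of 4.82 and 4.00. Ilp3 had 68 UMIs, of which 46 were in glia-like cells, whereas its paralog Ilp2 had 206 of 787 there. A single cell of cluster 29 in library pair 3 held 199 of these Ilp2 UMIs. The log2 ratio of Ilp3 in glia-like cells ran from -1.41 to 11.0 over the library pairs.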

How the data were processed

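From 8 libraries (4 preparations on 2 lanes each) the authors counted UMIs with Cell Ranger 3.1.0 (build BDGP6) and aggregated them into the 1 deposited matrix of whole-number counts. Whether depth was equalised in that step is not given in the sources used here. Barcode numbers are not tied to samples, so the matrix was used as 1 pooled sample, and 0 columns of other samples were left out.

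Counts of barcode numbers n and n + 4 were summed. Kept cells had a median of 3519 to 4326 UMIs per library pair. Cells were scaled to 10000 UMIs, log-transformed, reduced to 3000 variable genes other than the peptide genes and 50 principal components, and clustered (scanpy 1.11.5, Leiden through igraph 0.11.9, 20 neighbours, resolution 1.0, seed 1). A cluster was named "-like" from at least 3 markers in at least 10% of its cells. This scoring rule was set after the clusters were seen, and names may differ from those of the study. No doublet caller was run.

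Levels are UMIs of a gene per 1000000 UMIs of a group (CPM). Log2 ratios compare a group with all other cells, with exact conditional binomial intervals (scipy 1.17.1), and totals have exact Poisson intervals. Genes with 10 or more high cells or among the 10 with most UMIs (25 genes) were described one by one. Their companions were ranked by the CPM ratio of high cells to all others and the first 3 are named, leaving out peptide genes and genes under 30 UMIs in the high cells or seen in under 50% of these. A companion of Ilp2 is not reported here. Eh and SIFa were singled out after their values were seen. The members and lists were chosen with earlier results of these data known. The steps were tested on simulated data. Gene positions come from Ensembl release 115 (BDGP6.54), which holds 39 of the 40 identifiers (not that of Nplp2). None of the 39 shares exon sequence with another gene on its strand. Filters on cells, the high cell and UMI thresholds, the clustering and the library pairs used were varied.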

Additional observations from a re-analysis of the deposited data

Results flagged for a closer look

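Over the 4 library pairs, 5 of the 38 genes with 30 or more UMIs had 1 pair far from the others, with a gap to the nearest other pair of 0.846 to 0.996 of the whole range, above Dixon's 95% limit for 4 values. For normally distributed values, chance alone gives such a gap in about 1 of 20 genes. Levels set by a few cells need not follow that distribution, so the rate can differ here. The low cases were sNPF, at 2.13 CPM in library pair 1 against 15.0 to 17.3 in the other pairs, and Dh44, at 0.148 CPM in pair 1 against 2.47 to 2.70. The high cases were SIFa, at 32.7 CPM in pair 3 against 0.466 to 4.25, Nplp3, at 0.645 CPM in pair 4 against 0 to 0.0717, and AstCC, at 0.645 CPM in pair 2 against 0.0161 to 0.0186. The 3 high cases are genes of which 1 to 3 cells held 50% of the UMIs, so few cells set the level of a pair. Pair 1, low for sNPF and Dh44, had 977 neuron-like cells against 2073 to 2599 in the others.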

How the results depend on the processing

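No paired analysis was possible because there is 1 condition and the barcode numbers are not tied to samples. Of 174 counts recomputed under an alternative, 143 stayed within 1.5 times the reported count (within 1 SD over the library pairs for the summed CPM of the members) and 31 did not. None of the counts of concentrated members, members with 10 or more high cells or members at a log2 ratio of 1 or more in neuron-like cells moved that far. The number of members whose highest class was neuron-like, glia-like or midgut-like was 13, 1 and 5, with 19 in other groups. It changed with the grouping of cells. At resolution 2.0 the 4 counts were 4, 0, 3 and 31, and glia-like cells had 1 member at a log2 ratio of 1 or more in place of 8. With seed 2 the neuron-like and glia-like counts were 6 and 0, and with the member genes kept in the clustering they were 5 and 0, with 29 in other groups. With cells set apart by their own marker UMIs the first 3 counts were 26, 3 and 2. Only these 3 classes could be the highest in that setting, so the count for other groups was 0 by design. A member counted only at a log2 ratio of 1 or more in its highest class. Midgut-like cells then had 3 members at a log2 ratio of 1 or more in place of 9. With the filter of the study (under 10% mitochondrial UMIs and 50 to 3000 genes) 20 members were highest in neuron-like and 3 in midgut-like cells, and 3 reached a log2 ratio of 1 in glia-like cells. With at least 500 genes, 2 were highest in glia-like cells. Leaving out 1 library pair gave 0 to 2 members highest in glia-like, 3 to 5 in midgut-like cells and 5 to 9 at a log2 ratio of 1 or more in glia-like cells. The lowest of these came without pair 3, pair 2 and pair 4. The 11 gene pairs that shared high cells became 20 at 5 UMIs and 7 at 20 UMIs.

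Further alternatives were chosen after seeing the data. With named classes only, 2, 8 and 9 members were highest in glia-like, midgut-like and other cells. With cluster 29 set apart, 7 were highest in neuron-like cells and 2 reached a log2 ratio of 1 in glia-like cells. The 11 gene pairs that shared high cells became 7 when the 10 UMIs also had to be 0.1% of the cell.

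Of 344 log2 ratios of single members, 298 moved by less than 1 SD over the library pairs, 38 moved by more and 8 changed sign. A group that did not form under an alternative gave no value. Those that changed sign were Ilp2 in neural progenitor-like cells (-2.31 with the filter of the study, -3.48 at resolution 2.0), AstCC (-0.37, filter of the study) and Ptth (-1.26, resolution 2.0) in the same class, AstA in glia-like cells (-3.94, resolution 2.0), Dh31 (-0.0019) and Mip (-1.26) in midgut-like cells by own markers, and Lk in cluster 20, which ranged from -2.50 without pair 2 to 3.15 without pair 4. The causes were not tested. Genes with few UMIs are limited by depth. Tk, amn, Lk and Pburs had 5, 2, 20 and 6 UMIs in their highest group, and AstCC had 17.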

Other observations

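The split of UMIs between the barcode numbers of a pair shows sampling between these numbers only. It does not hold the error of RNA capture or library preparation. Over 1296 cell and gene pairs with 10 or more UMIs, without Nplp2, the squared deviation of the split averaged 1.11 times its binomial variance. CG4577 was the first companion of Ms, AstA, AstC, Mip, Burs and ITP, genes whose high cells lay in neuron-like, midgut-like and glia-like cells and in cluster 36. In the high cells of Ms it was at 601 CPM against 25.9 elsewhere, and in those of AstC at 254 CPM against 27.0. It was found in 83.7% of the Ms and 67.9% of the AstC cells.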
